A study of Homo sapiens with 7 samples.

Results

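The loops described here are those of human chromosome 19 outside its clusters of zinc-finger genes. A loop was counted when neither of its anchors had its midpoint in 7 windows of the chromosome, which in the coordinates of hg19 ran from 9.2 to 9.9, 11.6 to 12.8, 19.7 to 24.3, 36.6 to 38.4, 44.3 to 45, 52.3 to 54.1 and 56.5 to 59.1 Mb. Of 135475 loops in 7 lists, 15957 met this rule. A further 2777 loops of the chromosome had both anchors in the windows and 1423 had 1 anchor there. At the edge at 9.9 Mb the nearest counted anchor lay 0.878 kb outside the window and the nearest anchor within it 13.0 kb inside. At the edge at 38.4 Mb these distances were 20.2 kb and 2.07 kb. Chromosome and windows were chosen by loop density in these lists, so the density of what the windows leave is given as a description.

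The loops were measured by HiChIP, in which DNA ends that lie together in fixed nuclei are joined, enriched with an antibody and sequenced from both ends. All 7 libraries came from HEC-1-B, a uterine adenocarcinoma cell line, or lines derived from it, and each group held 1 library. Wild-type cells were measured with antibodies against ZNF143, CTCF and RAD21. ZNF143KO cells, which carry a deletion of ZNF143, were measured with the CTCF and RAD21 antibodies. CTCF-AID cells, in which CTCF carries a degron, were measured with the ZNF143 antibody at 0 h and at 24 h of auxin (IAA, 500 µM). The sources used here do not give the number of clones of either derived line, no list measured the protein that was removed, and loop lists hold no expression values with which to check the cell type. Without replicates no test could be made, and every interval is a 95% interval for counting error in those libraries only.

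CTCF is a DNA-binding zinc-finger protein that halts cohesin as it extrudes chromatin loops, and RAD21 belongs to the cohesin ring. ZNF143 is a zinc-finger activator that binds promoters, often through a motif searched here as ACTACA, any 2 bases and TCC. Chromosome 19 is the most gene-dense human chromosome and is rich in housekeeping promoters.

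A pair of promoters shows what ZNF143 anchors of this chromosome can hold. An anchor is the called stretch of DNA at either end of a loop, and genes are named at anchors from their known positions, since no annotation of hg19 was used. The anchor at chr19:4790697-4792456 lies at the start of FEM1A, which encodes a substrate receptor of a ubiquitin ligase, and carried the best supported ZNF143 loop that was lost after CTCF depletion. The anchor at chr19:47353329-47355208 lies at the start of AP2S1, which encodes the small subunit of the AP-2 clathrin adaptor, and had more partners at 0 h of auxin than any other anchor outside the windows. The sequences are RefSeq promoters on GRCh38.p14, from 250 bases before to 50 bases after each gene's start. The FEM1A promoter is chr19:4791484-4791783 on the plus strand and the AP2S1 promoter is chr19:46850265-46850564 on the minus strand. Capitals mark matches to the ZNF143 motif, which are read here on the opposite strand.
FEM1A: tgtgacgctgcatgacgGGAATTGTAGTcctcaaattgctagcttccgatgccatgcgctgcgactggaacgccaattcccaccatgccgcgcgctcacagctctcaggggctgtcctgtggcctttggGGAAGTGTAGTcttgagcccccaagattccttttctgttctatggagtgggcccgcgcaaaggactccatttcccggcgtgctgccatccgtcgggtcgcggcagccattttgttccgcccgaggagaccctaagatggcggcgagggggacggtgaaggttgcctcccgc
AP2S1: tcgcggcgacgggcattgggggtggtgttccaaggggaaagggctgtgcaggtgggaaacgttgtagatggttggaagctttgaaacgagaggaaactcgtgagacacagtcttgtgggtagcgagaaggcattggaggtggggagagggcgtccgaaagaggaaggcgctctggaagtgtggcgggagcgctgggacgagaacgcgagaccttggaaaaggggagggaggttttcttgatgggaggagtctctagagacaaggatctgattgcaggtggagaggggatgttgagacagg

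The FEM1A window held 2 matches, and the AP2S1 window held none of these letters. Searched on both strands, the ZNF143 motif was found in 664 of all 35116 RefSeq promoters of this length (1.89%), in 44 of 1593 chromosome 19 promoters whose symbol is not that of a zinc-finger gene (2.76%, interval 2.06 to 3.69) and in 1.72% (1.59 to 1.87) of those on other chromosomes. The CTCF motif, searched as CCAC, any base, AG, any 2 bases and GGC, was in neither printed promoter. It was found in 0.621% of all promoters, in 1.00% (0.619 to 1.63) of the chromosome 19 set and in 0.599% (0.522 to 0.688) of those on other chromosomes. A match of letters is a description and not a bound site.

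The lists differed in how much of them lay on this part of the genome. It held 2301 of 11981 wild-type ZNF143 loops (19.2%, interval 18.5 to 19.9), 1045 of 19313 wild-type CTCF loops (5.41%, 5.10 to 5.74) and 746 of 16788 wild-type RAD21 loops (4.44%, 4.14 to 4.77). In ZNF143KO cells it held 822 of 15597 CTCF loops (5.27%) and 493 of 10804 RAD21 loops (4.56%). In CTCF-AID cells it held 6269 of 40405 ZNF143 loops at 0 h (15.5%) and 4281 of 20587 at 24 h (20.8%). The share was thus high in all 3 ZNF143 lists and at most 5.41% in the 4 lists of CTCF and RAD21, with no overlap between them.

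Per Mb, the ZNF143 lists set chromosome 19 furthest apart. Wild-type ZNF143 loops numbered 55.1 per Mb, against 13.5 on chromosome 17, the densest other chromosome, and a median of 3.01 over the others. At 0 h and 24 h of auxin the densities were 150.2 and 102.6 per Mb, against 39.9 and 20.9 on chromosome 17. CTCF and RAD21 loops were also denser here than on any other chromosome, but by less: 25.0 against 15.8 per Mb for wild-type CTCF and 17.9 against 12.8 for wild-type RAD21. Loops exceeded anchors in this respect. Wild-type ZNF143 anchors were 8.05 times as dense as on the other chromosomes together and wild-type ZNF143 loops 17.6 times as dense. For CTCF the factors were 3.29 and 3.96. Each ZNF143 anchor here had 4.61 partners on average, against 2.12 elsewhere, and each CTCF anchor 2.72 against 2.26.

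**Figure D1:**
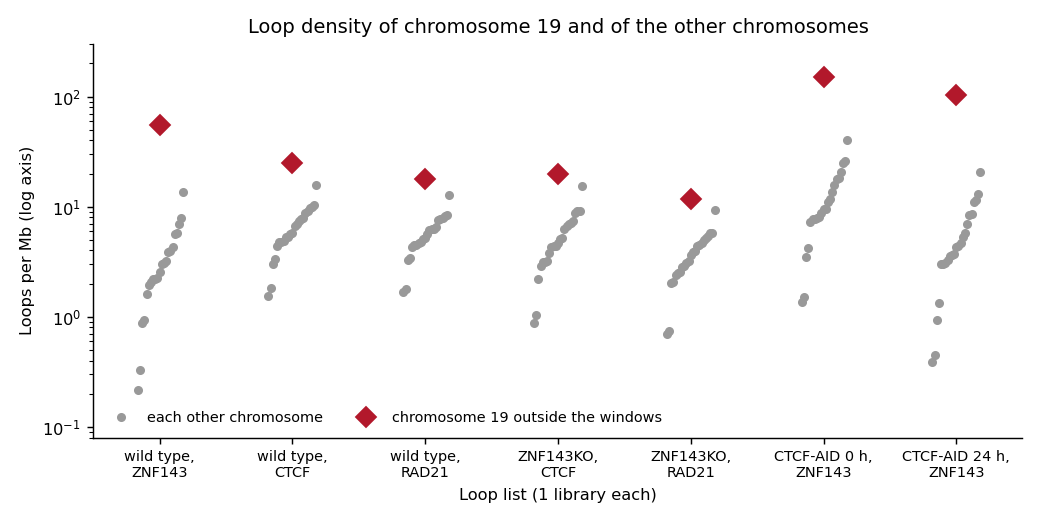
Loops per Mb (log axis) in each of the 7 lists, 1 library each; the red diamond is chromosome 19 outside the windows and each grey point another chromosome. The diamond is the highest point in every list, at 55.1 per Mb for wild-type ZNF143 and 25.0 for wild-type CTCF.

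The CTCF and RAD21 loops of chromosome 19 were short. The median span between anchor midpoints was 103.5 kb (97.3 to 111.5) for wild-type CTCF and 102.2 kb (95.3 to 114.0) for wild-type RAD21, the shortest of all chromosomes, against 157.5 and 164.8 kb on the others together. The wild-type ZNF143 loops spanned 145.8 kb (137.9 to 154.5), against 137.8 kb (133.6 to 142.3) elsewhere. ZNF143 loops here were thus longer than CTCF loops of the same stretch, which was the order on chromosomes 16, 17, 18 and 22 too, with 141.8 against 129.3 kb on chromosome 16. Over all other chromosomes together the wild-type ZNF143 median was below that of CTCF. ZNF143 loops here had more support than on the other chromosomes together, though not than on chromosome 16, whose mean count was 5.03 against 4.96 here. A count of at least 10, where the count is taken as the number of read pairs joining the anchors, was listed for 10.3% of wild-type ZNF143 loops, against 5.92% elsewhere. For wild-type CTCF loops the shares were 7.56% and 6.68%.

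The windows leave 7 segments, numbered here from the end of the p arm, 3 on the p arm and 4 on the q arm. The segments have extents of 8.95, 1.69, 6.84, 8.79, 5.87, 7.28 and 2.30 Mb between their outermost anchors. Segment 6, from 45 to 52.3 Mb on the q arm, held 44.7% of all wild-type ZNF143 loop ends in 7.28 Mb of 41.7 Mb. Its density was 141.4 loops per Mb, against 8.76 in segment 4, which lies next to the centromere, and between 31.6 and 75.8 in the other 5. Segment 6 was also the densest for wild-type CTCF (49.6 per Mb) and RAD21 (31.7 per Mb), and segment 4 the sparsest for both (9.21 and 6.03). Between these extremes the order differed by protein. Segment 7, near the end of the q arm, was second for ZNF143 with 75.8 per Mb, and for CTCF it had 15.2 per Mb, below 5 of the others. Segment 5 was second for CTCF with 36.6 per Mb, and for ZNF143 it had 31.6, below 5 of the others.

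**Figure D2:**
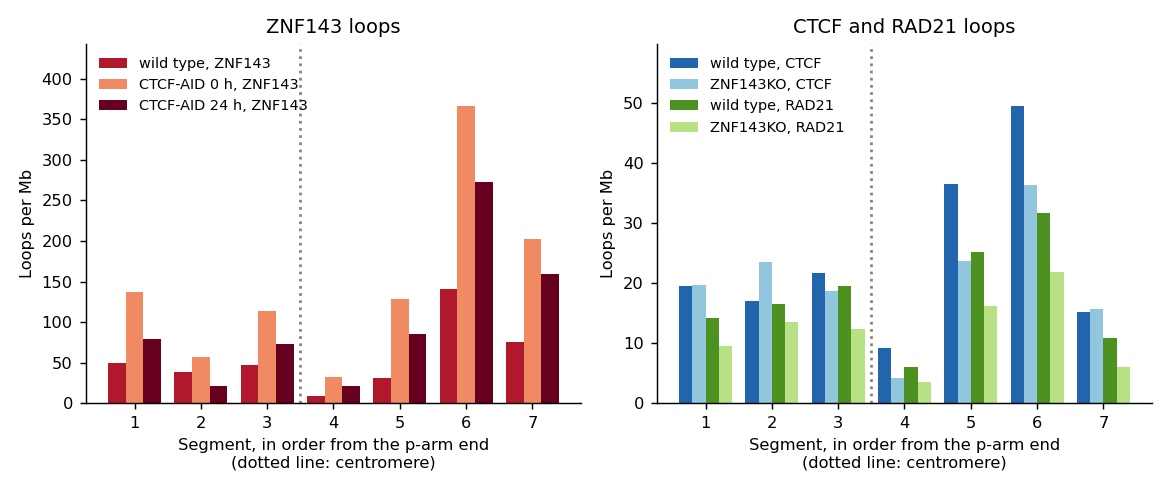
Loops per Mb in the 7 segments that the windows leave, in order from the p-arm end, with ZNF143 loops on the left and CTCF and RAD21 loops on the right; each bar is 1 library. Segment 6 is the tallest in all 7 lists, and segment 4 the shortest in all 7, by little for ZNF143 at 24 h, where it has 21.5 per Mb against 21.8 in segment 2.

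Within segment 6 a single Mb stood out for ZNF143. From 49 to 50 Mb there were 380.5 wild-type ZNF143 loops per Mb, and 871 and 721.5 per Mb at 0 h and 24 h of auxin. The next bin, 48 to 49 Mb, had 111.5 wild-type ZNF143 loops per Mb. For CTCF this order did not hold, since the bin from 48 to 49 Mb had 71 wild-type loops per Mb and the bin from 49 to 50 Mb had 62. For RAD21 the values were 53.5 and 57.5. Among bins with at least 0.5 Mb outside the windows, the 4 densest over all lists lay between 45 and 50 Mb. Of the bins mostly within a window, that from 44 to 45 Mb, with 0.29 Mb outside, was denser than the fourth of these and had 75.9 wild-type RAD21 loops per Mb. The bins from 24 to 25, 25 to 26 and 26 to 27 Mb, between a window and the first anchor of segment 4, held no loop end in any list. Of the bins that held any under the same limit, the 3 sparsest over all lists lay in segment 4, from 28 to 29, 30 to 31 and 31 to 32 Mb. They held no wild-type ZNF143 loop end at all and between 4 and 6 wild-type CTCF loop ends each.

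The anchors with most partners lay in segment 6. The anchor at chr19:49147305-49150694, at the start of the carbonic anhydrase-related gene CA11, had 57 partners among wild-type ZNF143 loops, 11 among wild-type CTCF loops and 6 among wild-type RAD21 loops. It had 8 and 3 partners among CTCF and RAD21 loops of ZNF143KO cells, and 84 and 74 among ZNF143 loops at 0 h and 24 h of auxin. This was the highest number of wild-type ZNF143 partners outside the windows, and no anchor of another chromosome exceeded 44.

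The other 5 of the 6 anchors with the highest sums over all lists divided by their use in CTCF loops. The AP2S1 anchor had 45 partners among wild-type ZNF143 loops, 89 at 0 h and 65 at 24 h, and none in any of the 4 CTCF and RAD21 lists. That at chr19:49247791-49251407 had 38, 68 and 64 ZNF143 partners and likewise no CTCF or RAD21 loop. Likewise chr19:49222747-49225635 had 43, 81 and 77, with 1 CTCF partner in ZNF143KO cells and none in the other 3. That at chr19:49297700-49299717 had 46, 68 and 73 ZNF143 partners and between 5 and 8 in each CTCF and RAD21 list. The anchor at chr19:45905134-45909809, at the start of PPP1R13L, which encodes an inhibitor of p53, had 40, 63 and 49 ZNF143 partners and between 3 and 5 in those lists. So 3 of these 6 anchors had 0 or 1 partner in each CTCF and RAD21 list, and 3 were anchors of all 7 lists.

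The 4 of these anchors that lie from 49 to 50 Mb were linked to one another in every ZNF143 list. The strongest of their links joined chr19:49222747-49225635 and chr19:49247791-49251407 over 25.4 kb. It had a count of 52 in wild-type cells, 206 at 0 h and 262 at 24 h, and was in none of the CTCF and RAD21 lists. The other 5 links among them had counts between 14 and 50 in wild-type cells, 54 and 82 at 0 h, and 67 and 123 at 24 h. Most counts in the CTCF-AID lists were even numbers, so their scale may differ from that of the wild-type counts, and levels are compared here only between 0 h and 24 h.

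The anchors with most CTCF partners were different ones. One of them, chr19:48793317-48795313, had 23 partners among wild-type CTCF loops and 13 among wild-type RAD21 loops, and 8 among wild-type ZNF143 loops. In ZNF143KO cells it had 11 and 7, and among ZNF143 loops of CTCF-AID cells 14 at 0 h and 21 at 24 h. In segment 3 the anchor at chr19:13387491-13389604 had 15 CTCF, 12 RAD21 and 6 ZNF143 partners in wild-type cells. CTCF hubs of this size were not particular to chromosome 19, since other chromosomes reached 26 partners. Hubs of ZNF143 loops were larger here: 11.1% of the 994 anchors had at least 10 partners, against 2.40% of 8511 elsewhere, and at 0 h and 24 h of auxin 27.8% and 35.1% had them, against 4.70% and 6.10%. Anchors also lay closer together here. Of all pairs of used anchors from 20 kb to 2 Mb apart, 4.43% (4.25 to 4.61) were listed as wild-type ZNF143 loops here, against 6.29% (6.17 to 6.42) elsewhere, while from 49 to 50 Mb 17.02% (15.4 to 18.8) were listed.

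Whole loops coincided less than anchors did. A loop counted as found in a second list if each of its anchors, extended by 5 kb, overlapped the matching anchor of a loop there. The share of the 2301 wild-type ZNF143 loops that matched a wild-type CTCF loop was 12.7% (11.4 to 14.1), against 19% of the whole ZNF143 list and 21.7% (20.9 to 22.6) on other chromosomes. Among RAD21 loops 9.78% (8.63 to 11.1) were found, against 16.3% of the whole list. In the other direction the shares were higher here: 25.5% (22.9 to 28.2) of CTCF loops were found among ZNF143 loops, against 12.8% of the whole CTCF list, and 26.3% (23.2 to 29.5) of RAD21 loops, against 12.3%. Of CTCF loops, 44.3% (41.3 to 47.3) were found among RAD21 loops, against 46.4% of the whole list and 46.6% (45.8 to 47.3) on other chromosomes. Of RAD21 loops, 58.7% (55.1 to 62.2) were found among CTCF loops, against 52.2% of the whole list and 51.8% (51.1 to 52.6) on other chromosomes, with intervals that did not overlap. Of the 994 ZNF143 anchors, 45.4% were also anchors of wild-type CTCF loops, and of the 766 CTCF anchors 58.9% were anchors of ZNF143 loops.

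The best supported loops differed in whether they were shared between the proteins. The loop from chr19:42746154-42749865, at the start of the kinase gene GSK3A, to chr19:42771393-42773763 spanned 24.6 kb and had a count of 85 in wild-type ZNF143, 283 at 0 h and 398 at 24 h. It was in none of the CTCF and RAD21 lists. The loop from chr19:45906702-45909809 to chr19:45987998-45989832 had the highest wild-type ZNF143 count, 89, with 97 at 0 h and 192 at 24 h. It was found in all 4 CTCF and RAD21 lists, where the highest counts of a matching loop were 13 and 5 for CTCF and RAD21 in wild-type cells and 5 and 7 in ZNF143KO cells. The best supported CTCF loop, from chr19:44058636-44060104 to chr19:44098397-44099791, had a count of 43 in wild-type CTCF and 37 in wild-type RAD21. In ZNF143KO cells its counts were 13 and 11. Among ZNF143 loops it had 4 in wild-type cells and 2 at 0 h, and it was not listed at 24 h. The best supported RAD21 loop, from chr19:45942137-45943721 to chr19:45980865-45983019, had counts of 33 for CTCF and 47 for RAD21 in wild-type cells, and 18 for both in ZNF143KO cells. It was a ZNF143 loop too, with counts of 20 in wild-type cells, 36 at 0 h and 33 at 24 h.

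The ZNF143 loops were then followed through CTCF depletion, a pair of lists in which chromosome 19 differed from the rest. From 6269 loops at 0 h, 4281 were listed at 24 h, a ratio of 0.683 (0.657 to 0.710), against 0.453 (0.445 to 0.462) on the other chromosomes. No other chromosome had as high a ratio, the nearest being chromosome 16 at 0.637. Of the loops at 0 h, 2434 were kept, that is found at 24 h: 38.8% (37.6 to 40.04), against 24.7% of the whole list and 20.3% (19.9 to 20.8) on the other chromosomes. The difference from the other chromosomes was 18.5 percentage points (17.2 to 19.8). The remaining loops of chromosome 19 had higher values still. With both anchors in the windows the number ratio was 0.865 (0.792 to 0.943) and 61.2% (58.3 to 64.0) were kept. With 1 anchor in the windows the ratio was 1.11 (0.992 to 1.25) and 44.1% (40.1 to 48.2) were kept. Of the loops at 24 h, 2000 were gained, that is not found at 0 h: 46.7% (45.2 to 48.2), against 54.6% of the whole list. With anchors not extended, 30.2% were kept here and 16.8% elsewhere. If the 0 h list is thinned by calculation to the listed total of the 24 h list, the ratio becomes 0.905 here and 0.630 elsewhere. The calculation treats each unit of a count as a separate read pair, which the mostly even counts of these lists may not be.

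The number ratio differed by the count of the loops, which is not scaled to depth. It was 0.578 (0.548 to 0.609) for loops with a count of 2, 0.860 (0.773 to 0.955) for counts of 5 to 9 and 1.14 (0.983 to 1.33) for counts of 10 to 19. With a minimum count of 10 there were 513 loops at 0 h and 579 at 24 h, a ratio of 1.13 (1.00 to 1.27), against 1.02 (0.943 to 1.11) elsewhere. At a minimum of 20 the order turned, with 1.10 (0.899 to 1.35) here and 1.25 (1.08 to 1.46) elsewhere. Loops of high count were lost too, and more were lost than gained at each minimum. Of 513 loops with a count of at least 10 at 0 h, 114 were lost (22.2%, 18.8 to 26.0), against 31.3% (28.7 to 34.0) elsewhere, and of 579 at 24 h 29 were gained (5.01%, 3.51 to 7.10), against 9.22% (7.73 to 10.96). At a minimum of 20 there were 32 lost of 184 and 2 gained of 203. The kept share rose with the count: 26.48% (25.1 to 27.9) at a count of 2, against 13.0% (12.6 to 13.4) elsewhere, and 62.7% (59.2 to 66.1) at counts of 5 to 9, against 45.5% (43.6 to 47.3). At counts of 20 and more the shares were 82.6% (76.5 to 87.4) and 80.3% (75.5 to 84.4), and their intervals overlapped. The other 399 of the 513 loops were found at 24 h, of which 222 had a higher count and 163 a lower one, with a median ratio of 1.17 (1.08 to 1.23). Elsewhere 426 of 832 had a higher count and 368 a lower one, with a median of 1.07 (1.00 to 1.12), and the intervals overlapped.

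**Figure D3:**
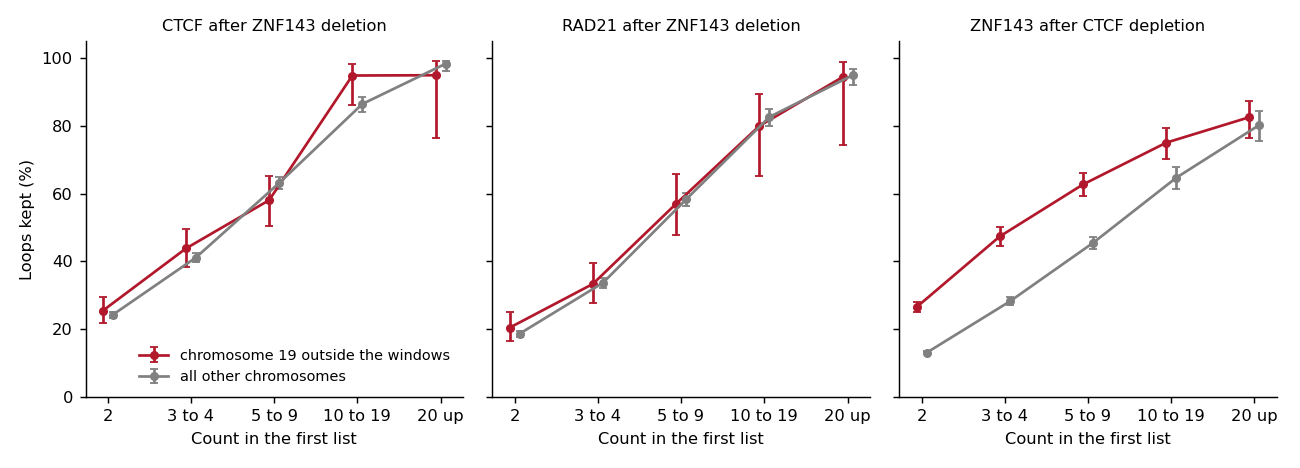
Share of loops kept (%) by the count of the loop in the first list, for chromosome 19 outside the windows (red) and all other chromosomes (grey), in 3 pairs of lists; bars are 95% Wilson intervals. The red and grey lines run together in both pairs of ZNF143 deletion and stand apart after CTCF depletion in the classes below 20, with 26.48% against 13.0% at a count of 2; at 20 and more they meet, with 82.6% and 80.3%.

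Loops grew longer in the list after depletion. The median span rose from 205.9 kb (197.4 to 213.1) at 0 h to 267.8 kb (253.2 to 281.4) at 24 h, a ratio of 1.30, against 1.23 on the other chromosomes. From wild-type cells to CTCF-AID cells at 0 h, with no protein removed, the ratio was larger, at 1.41. With a minimum count of 3 the order turned, with 1.33 after depletion and 1.09 without removal. Kept loops had a median of 157.7 kb, lost loops 259.8 kb and gained loops 499.1 kb (473.0 to 527.3). The number ratio was 0.498 (0.442 to 0.561) for spans of 20 to 50 kb and 0.986 (0.881 to 1.10) for spans of 1000 to 2000 kb.

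The ratio varied along the arms. On the p arm it was 0.595 (0.554 to 0.638) and on the q arm 0.727 (0.694 to 0.762). Segment 7 had 0.789 (0.686 to 0.907), with 59.1% of its loops kept, segment 6 had 0.741 (0.699 to 0.786) with 45.7% kept, and segment 2 had 0.359 (0.233 to 0.539) with 18.5% kept. The other 4 lay between 0.576 and 0.663. None of the 41 bins with at least 50 ends had a ratio above 1, and the lowest was 0.288 from 43 to 44 Mb, a bin with 5 wild-type ZNF143 and 76 wild-type CTCF loop ends. Within the bin from 49 to 50 Mb, 634 loops became 477, a ratio of 0.752 (0.667 to 0.849). Without loops that touch this bin the ratio of the rest was 0.642 (0.615 to 0.671) and 35.4% were kept, still above every other chromosome.

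**Figure D4:**
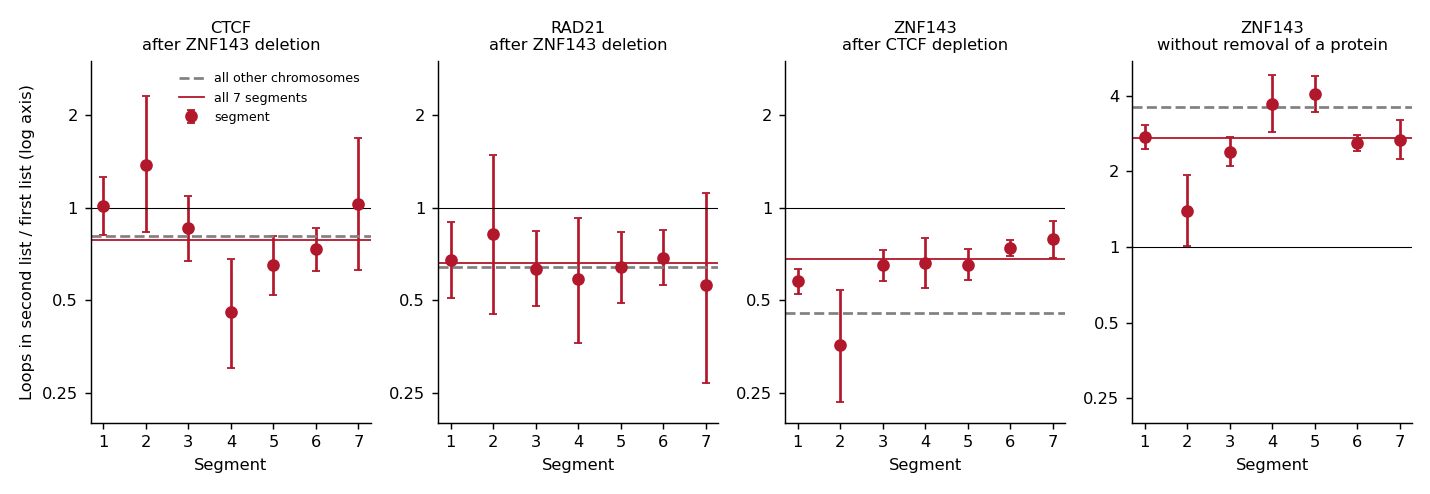
Ratio of the number of loops in the second list to that in the first (log axis), by segment, for the 4 pairs of lists; bars are 95% intervals for counting error, the red line is the ratio over all 7 segments and the dashed line that of all other chromosomes. After CTCF depletion 6 of 7 segments lie above the dashed line and segment 2, at 0.359, below it.

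Fewer anchors carried the ZNF143 loops after depletion. There were 1448 anchors at 0 h and 837 at 24 h, and 792 were used at both times, which is 94.6% (92.9 to 96.0) of those at 24 h and 54.7% (52.1 to 57.2) of those at 0 h. On the other chromosomes 36.9% of the anchors of 0 h were used at 24 h. An anchor without a loop in a list may not have been called there. Of pairs of used anchors from 20 kb to 2 Mb apart, 6.37% were listed at 0 h and 12.7% at 24 h. These shares were about the same as the 6.81% and 12.6% of other chromosomes. From 49 to 50 Mb the share was 26.46% (24.7 to 28.3) over 71 anchors at 0 h and 48.8% (45.7 to 52.0) over 45 anchors at 24 h. Each time has its own set of anchors, and anchors with few partners at 0 h were used less often at 24 h. The share at 0 h among only the anchors used at 24 h was not computed. Whether the same anchors became more connected was therefore not tested. Of the 3835 lost loops, 39.2% still had both anchors in use at 24 h, against 21.6% elsewhere. Among loops whose anchors were both in use at 24 h, 61.8% (60.3 to 63.3) were kept, against 54.2% (53.3 to 55.05) elsewhere.

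The anchors differed by their use in wild-type CTCF and RAD21 loops. Anchors of ZNF143 loops only (492) had 5215 partners in sum at 0 h and 4483 at 24 h, a ratio of 0.860. The 351 anchors of all 3 wild-type lists had a ratio of 0.580. The 154 anchors of CTCF and RAD21 loops only had 0.366, and the 161 anchors of CTCF loops only 0.315. Of 427 anchors used at 0 h that were anchors of wild-type ZNF143 loops without CTCF or RAD21, 76.8% (72.6 to 80.6) were used at 24 h, against 71.3% (69.5 to 73.1) for the same class elsewhere. Of 437 anchors of wild-type ZNF143 loops with CTCF or RAD21, 54.9% (50.2 to 59.5) were used, against 45.1% (43.6 to 46.6). For anchors of CTCF or RAD21 loops without ZNF143 the shares were 32.2% (25.2 to 40.1) and 24.2% (23.1 to 25.4), and for anchors in none of the wild-type lists 40.4% (35.9 to 45.1) and 29.8% (28.8 to 30.9). The order of the 4 classes was thus the same here and on the other chromosomes, with a higher share here in each. Among anchors with at least 10 partners at 0 h it was the other way round: 79.1% (74.9 to 82.8) of 402 were used at 24 h here and 88.0% (85.7 to 89.9) of 913 elsewhere.

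By loop, the same order held. Loops with no anchor in the wild-type CTCF list numbered 2343 at 0 h and 1960 at 24 h, a ratio of 0.837 (0.787 to 0.889). With 1 such anchor the ratio was 0.634 (0.598 to 0.673) and with 2 it was 0.470 (0.422 to 0.525). The kept shares were 43.7%, 36.9% and 33.3%. These classes of loops were not counted on the other chromosomes, so whether the order is particular to this part was not tested.

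Anchors that were highly connected at 0 h were used most often at 24 h. Anchors with at least 20 partners at 0 h numbered 145; 133 of them (91.7%) were used at 24 h, and their summed partners had a ratio of 0.833. The share used rose with each class, from 30.7% of anchors with 1 partner through 43.4% with 2 to 4, 51.9% with 5 to 9 and 72.0% with 10 to 19. The ratio of summed partners did not follow that order, at 0.764, 0.527, 0.497 and 0.620 for the same 4 classes. There were exceptions among well-connected anchors. Those at chr19:48245851-48249503 and chr19:50379217-50381057 each had 31 partners at 0 h and none at 24 h. The first was an anchor of wild-type CTCF and RAD21 loops (7 and 5 partners) and the second of neither. In the other direction, the anchor at chr19:48983330-48985007 went from 0 to 17 partners and that at chr19:47478365-47481205 from 0 to 16, and neither was an anchor in any wild-type list.

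**Figure D5:**
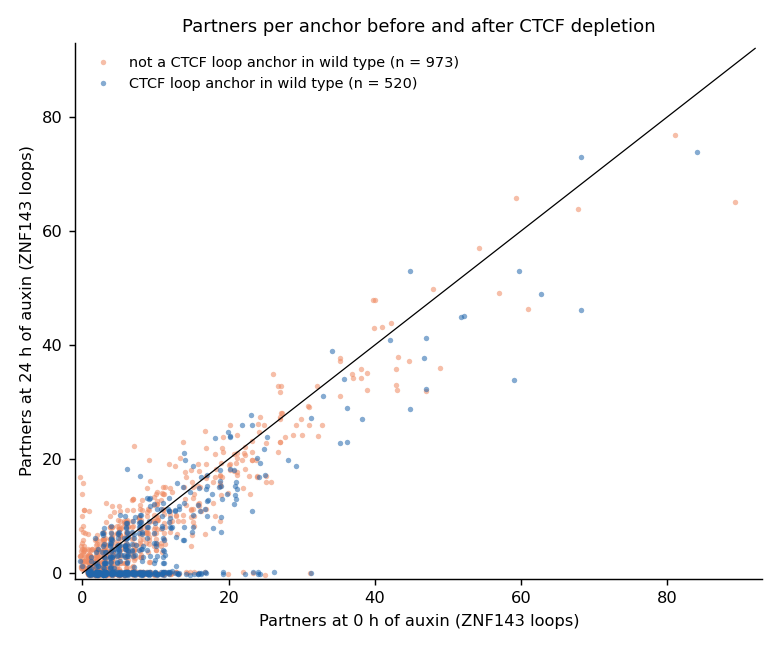
Partners of each anchor among ZNF143 loops at 0 h (x axis) and 24 h (y axis) of auxin, for 520 anchors that were and 973 that were not CTCF loop anchors in wild-type cells; the line marks equal numbers and points are jittered. Of the CTCF anchors 426 lie below the line and 70 above it, and of the others 654 lie below and 251 above.

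Single loops changed in both directions. The FEM1A anchor was joined to chr19:4732259-4733582 over 58.7 kb with a count of 32 in wild-type ZNF143 and 90 at 0 h, and the loop was not found at 24 h. It was also in the wild-type CTCF list with a count of 6. The same anchor was joined over 31.7 kb to chr19:4759135-4760634 with counts of 46 at 0 h and 41 at 24 h, so its loops did not all go. The loops from chr19:49297700-49299717 to chr19:49345278-49347152 (count 50 at 0 h) and from chr19:42746154-42749865 to chr19:42799067-42800991 (count 45) were likewise lost, and both were in the wild-type CTCF list, with counts of 12 and 2. The merged anchors at their far ends had 24 and 6 partners at 0 h and none at 24 h, so no loop of those anchors was listed. The best supported gained loop joined the AP2S1 anchor to chr19:47478365-47481205 over 125.5 kb, with a count of 95 at 24 h and none in any other ZNF143 list. Gained loops at chr19:52096409-52098669 to chr19:52207002-52208153 (count 33) and chr19:1651136-1654038 to chr19:1904217-1906053 (count 19) were not in the wild-type CTCF or RAD21 lists either. These 6 loops were picked by their counts. Lost loops of all counts together were not found among wild-type CTCF loops more often than kept ones. The share was 7.59% (6.79 to 8.47) of the 3835 lost loops, 8.55% (7.50 to 9.72) of the 2434 kept ones and 1.75% (1.26 to 2.42) of the 2000 gained ones. On the other chromosomes these shares were 12.9%, 14.6% and 2.85%, in the same order.

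The 2 ZNF143 lists of cells in which no protein had been removed were set beside these values. From 2301 loops in wild-type cells to 6269 in CTCF-AID cells at 0 h the ratio was 2.72 (2.60 to 2.86), against 3.59 elsewhere, with 71.8% (70.0 to 73.6) of the wild-type loops kept, against 59.6% of the whole list and 55.4% elsewhere, and 70.2% of the 0 h loops gained, against 80.6% of the whole list. The difference in kept share from the other chromosomes, 16.4 points (14.3 to 18.5), was close in size to that after CTCF depletion, although nothing had been depleted. These 2 libraries also differ in cell line and list layout and may differ in scale of counts, and these cannot be told apart. With the CTCF-AID counts divided by 2, the number ratio was 0.899 and 50.8% were kept.

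CTCF loops after ZNF143 deletion changed here by about as much as on the other chromosomes. There were 1045 in wild-type and 822 in ZNF143KO cells, a ratio of 0.787 (0.717 to 0.863), against 0.810 (0.792 to 0.828) on the other chromosomes. Of the wild-type loops 430 were kept, 41.1% (38.2 to 44.2), against 39.1% of the whole list, and of the loops in ZNF143KO cells 404 were gained, 49.1% (45.7 to 52.6), against 52.9% of the whole list. The kept share differed from that of the other chromosomes by 2.13 points (-0.905 to 5.22). RAD21 loops fell from 746 to 493, a ratio of 0.661 (0.589 to 0.741), against 0.643 (0.627 to 0.659). Of these 261 were kept, 35.0% (31.6 to 38.5), against 34.1% of the whole list, and 240 were gained, 48.7% (44.3 to 53.1), against 49.1%. That kept share differed from the other chromosomes by 0.868 points (-2.55 to 4.44). The layout of the lists changed together with the genotype in both pairs, so a difference in how the lists were made and the deletion cannot be told apart. Thinning the wild-type lists by calculation to equal listed totals turned the direction, to 1.22 for CTCF (1.28 elsewhere) and 1.25 for RAD21 (1.23 elsewhere).

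Counts per loop were also lower in the ZNF143KO lists. They are not scaled to depth, and the summed count of all CTCF loops was 46220 there, against 80726 in wild type. The loops compared next were selected on a high count in wild type, so a lower count in the second list is no sign of a change by itself. Of the 79 CTCF loops with a count of at least 10 in wild-type cells, 75 were found in ZNF143KO cells, 74 of them with a lower count, with a median ratio of 0.308 (0.267 to 0.364), against 1087 of 1214 found, 1039 of them lower, and a median of 0.333 (0.333 to 0.364) elsewhere. For RAD21, 49 of 58 were found, 48 with a lower count, with a median ratio of 0.273 (0.200 to 0.333), against 1027 of 1189 found, 995 lower, and a median of 0.312 (0.300 to 0.333) elsewhere. The intervals overlapped for both proteins. The median span was 89.5 kb (82.8 to 97.2) for CTCF in ZNF143KO cells, against 103.5 kb in wild type, and 91.2 kb (82.7 to 101.3) against 102.2 kb for RAD21. For RAD21 these intervals overlapped. CTCF loops of 200 to 500 kb had a ratio of 0.588 (0.471 to 0.731) and those of 20 to 50 kb 0.942 (0.782 to 1.13).

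The CTCF ratio differed between the arms. On the p arm 353 loops became 345, a ratio of 0.977 (0.840 to 1.14), and on the q arm 692 became 477, a ratio of 0.689 (0.612 to 0.776). For RAD21 the ratios were 0.671 (0.557 to 0.808) and 0.654 (0.564 to 0.759), with overlapping intervals. The CTCF ratio was lowest in segment 4, at 0.457 (0.301 to 0.682) with 17.3% of loops kept, and highest in segment 2, at 1.38 (0.834 to 2.31). In the first 2 Mb of the p arm CTCF loops rose from 32 to 64, a ratio of 2.00 (1.29 to 3.16), and RAD21 loops numbered 26 and 28, a ratio of 1.08 (0.609 to 1.91). With a minimum count of 3 the CTCF loops there numbered 16 and 26, with an interval of 0.839 to 3.24. This stretch holds the 2 bins with the highest CTCF ratios of loop ends, so its interval is no sign of a change by itself. By bins of 1 Mb, the CTCF loop ends numbered 23 and 49 in the first and 37 and 75 in the second, while from 33 to 34 Mb they numbered 50 and 12. Of 30 bins with at least 50 CTCF ends 5 had a ratio above 1.

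CTCF loops whose anchors were both anchors of wild-type ZNF143 loops had the same number ratio as those with neither. They numbered 591 in wild-type and 412 in ZNF143KO cells, a ratio of 0.697 (0.613 to 0.792), against 109 and 76 with neither, also 0.697 (0.513 to 0.943), and 345 and 334 with 1, 0.968 (0.830 to 1.13). The kept share was 47.0% (43.0 to 51.1) with both, 36.8% (31.9 to 42.0) with 1 and 22.9% (16.05 to 31.7) with neither. For RAD21 the kept shares did not follow this order, with 39.3% (34.8 to 44.0) with both, 27.8% (22.5 to 33.8) with 1 and 32.9% (23.0 to 44.5) with neither. The RAD21 number ratios were 0.625 with both, 0.689 with 1 and 0.786 with neither, and the 3 intervals overlapped. The same classes were not counted on the other chromosomes. Among loops whose anchors were both still in use in ZNF143KO cells, 54.6% (51.1 to 58.0) of CTCF loops were kept here, against 60.6% (59.7 to 61.5) elsewhere, and 54.8% (50.3 to 59.2) of RAD21 loops, against 61.3% (60.3 to 62.3).

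Most CTCF anchors had fewer partners in the ZNF143KO list, here and elsewhere. Of the 766 anchors 480 had fewer (62.7%, 59.2 to 66.0) and 114 more, against 63.8% (63.1 to 64.6) with fewer elsewhere. Of the 24 anchors with at least 10 partners in wild-type cells all were used in ZNF143KO cells, 23 had fewer partners (95.8%, 79.8 to 99.3) and none had more. Elsewhere 201 of 240 such anchors had fewer (83.8%, 78.6 to 87.9) and 27 more, and the intervals overlapped. These hubs were selected on their number in wild-type cells, the list that serves as the reference, so a lower number in the second list is no sign of a change by itself. The anchor at chr19:48793317-48795313 went from 23 to 11 CTCF partners and from 13 to 7 RAD21 partners. That at chr19:2950335-2953681 went from 11 to 2 and from 10 to 0. In the other direction the anchor at chr19:921114-922504, near the p-arm end, went from 8 to 13 CTCF partners and had 3 RAD21 partners in both, and that at chr19:55671227-55673471 went from 3 to 9 CTCF partners.

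Among single loops, the CTCF loop with the highest count that was not found in ZNF143KO cells joined chr19:48769718-48771024 to the hub at chr19:48793317-48795313 over 23.9 kb. Its count was 25 in both wild-type lists, and in ZNF143KO cells it was not among CTCF loops but had a count of 9 among RAD21 loops. The loop from chr19:44058636-44060104 to chr19:44155650-44157475 had wild-type counts of 12 for CTCF and 17 for RAD21 and was found in neither list of ZNF143KO cells. The loop from chr19:41954443-41956590 to chr19:42069162-42070633 had 18 and 23 in wild-type cells, 3 for CTCF in ZNF143KO cells and was not found for RAD21. The highest counts of gained loops were 6 for CTCF, at chr19:47749958-47751522 to chr19:47774716-47776644 and at chr19:55671227-55673471 to chr19:55812557-55813990, and 6 for RAD21, at chr19:1243691-1245707 to chr19:1265761-1267695. Of the CTCF loops with a count of at least 5, 74 of 246 were lost (30.1%, 24.7 to 36.1), against 28.5% (27.1 to 30.0) elsewhere, and 5 of 81 were gained (6.17%, 2.67 to 13.6), against 12.7% (11.2 to 14.4). Both pairs of intervals overlapped, and the counts of both lists stand unscaled here too.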

How the data were processed

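HiChIP loops were analysed in 7 libraries of HEC-1-B and derived lines, 1 per group by its title. The authors deposited 1 loop list per library with a whole-number count for each loop, from 2 upwards and not scaled to depth. Per the submitters' processing notes HiC-Pro and hg19 were used, and the loop caller is not given in the sources used here. The lists of wild-type ZNF143 and of both ZNF143KO libraries had another layout than the other 4. The total count of a list, 33460 to 143119, is a sum over listed loops, and the depth of the libraries is unknown.

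Python 3.11.15 with numpy 2.4.6, pandas 2.3.3, scipy 1.17.1 and matplotlib 3.10.9 was used. Overlapping anchors of all lists were merged, and the partners of a merged anchor were counted. Loops were matched after extending anchors by 5 kb, with at least 1 bp of overlap. Density is the number of loop ends per Mb divided by 2, and the arms were divided at the centromere. Shares carry Wilson intervals, their differences Newcombe intervals, number ratios exact binomial intervals and medians order-statistic intervals, all at 95%. Loops that share anchors are not independent, so these are too narrow. The matching was tested on simulated data. Named were, for each pair of lists, the 3 lost and 3 gained loops of highest count, the 2 strongest loops per list, the 6 anchors with most partners in sum and the 2 highest per list, and the extreme bins of 1 Mb with at least 50 ends, of which the text gives those that its statements use. The members, lists and classes were chosen with earlier results of these data known.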

Additional observations from a re-analysis of the deposited data

Results flagged for a closer look

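From 41 to 42 Mb the loop ends of CTCF and RAD21 moved in opposite directions after ZNF143 deletion, and no test of that difference could be made with 1 library each. CTCF ends went from 48 to 22, a ratio of 0.458, while RAD21 ends went from 20 to 36, a ratio of 1.8. A loop with both ends in the bin counts 2 times among ends, so no interval is given for these ratios. With each loop counted once, CTCF loops went from 36 to 16, a ratio of 0.444 (0.230 to 0.822), and RAD21 loops from 14 to 22, a ratio of 1.57 (0.769 to 3.32), an interval that includes 1. Counted that way, none of the 48 bins had CTCF and RAD21 intervals that excluded 1 on opposite sides. The bin was found by looking over all bins.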

How the results depend on the processing

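No paired analysis was possible because each group held 1 library, and for the same reason no library could be left out. Of 111 recomputed values of 29 results, 51 stayed within the interval of the value given above (or, for densities and hubs, within 1.5 times it), 55 moved beyond it in the same direction and 5 turned direction. Leaving out loops that touch 49 to 50 Mb was chosen after seeing the data, and the other alternatives were planned. The cause of each move was not tested.

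The 5 that turned were the number ratios at equal listed totals (1.22 for CTCF and 1.25 for RAD21 after ZNF143 deletion), that after CTCF depletion at a minimum count of 10 (1.13), and, with CTCF-AID counts divided by 2, the number ratio (0.899) and span ratio (0.825) from wild-type to CTCF-AID cells, whose kept share was then 50.8%. Equal totals gave number ratios of 0.905 after depletion and 1.14 without removal, both by thinning the 0 h list, whose counts were mostly even. A minimum count of 3 gave number ratios of 0.598, 0.464, 0.853 and 1.80 for CTCF and RAD21 after deletion, after depletion and without removal, kept shares of 36.1%, 30.8%, 50.1% and 69.5%, and span ratios of 0.740 for CTCF and 1.09 without removal. A minimum count of 10 gave number ratios of 0.177 and 0.138 after deletion and 2.16 without removal, kept shares of 16.5%, 13.8%, 63.5% and 83.1%, and a span ratio of 1.11 without removal. Without extension of anchors 34.6%, 29.9%, 30.2% and 62.3% were kept, and with 10 kb 46.8%, 40.8%, 48.2% and 77.8%. Spans of 40 kb to 1 Mb gave a kept share of 40.1% and a span ratio of 1.16 after depletion, and a number ratio of 2.57 and a span ratio of 1.23 without removal.

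Without the bin from 49 to 50 Mb the number ratio after depletion was 0.642 and the kept share 35.4%, and the shares of the lists were 15.6%, 12.8% and 16.1% for ZNF143 in wild-type cells, at 0 h and at 24 h, 5.03% and 4.91% for CTCF in wild-type and ZNF143KO cells and 4.08% for wild-type RAD21. With a minimum count of 3 the ZNF143 shares were 23.0%, 19.2% and 24.2%. Of wild-type ZNF143 loops 8.40% were found among CTCF loops at a minimum count of 3, 7.39% without extension and 17.9% with 10 kb, and of CTCF loops 48.3%, 38.0% and 48.5% among RAD21 loops. The densest bin of wild-type ZNF143 had 571 loops per Mb in bins of 0.5 Mb and 246 in bins of 2 Mb, and that at 24 h had 1086 in bins of 0.5 Mb. With a minimum count of 3 the highest numbers of partners were 58 at 0 h and 51 at 24 h. The lists start at a count of 2, so absence from a list does not show that a loop is absent.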
